A study of Arabidopsis thaliana with 36 samples.

Results

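Isolate TM1 of the *atx1,3,4* triple mutant was compared with isolate TM2 at T6, the last harvest of the time course, over all 19437 genes of the deposited table. The comparison uses 6 of the 36 libraries of the series, 3 from TM1 and 3 from TM2, and they were chosen by their labels alone. The 3 wild-type (WT) libraries of T6 were used only to say which isolate departs from WT. Both isolates are homozygous for the same T-DNA alleles in the Columbia-0 (Col-0) background, *atx1* (SALK_149002), *atx3* (GABI_128H01) and *atx4* (SALK_060156). GEO's description derives them from different crosses and mentions possible differences in background mutations, whereas the study's text derives them from different plants of 1 cross. WT was Col-0 without the insertions, and no group received a treatment. Leaf 6 was harvested at T0, T2, T4 and T6, which are days 25, 27, 29 and 31 after stratification. The TM plants had bolted on neighbouring days around T0, and the WT plants were vegetative, apart from a single one that had bolted by T6. For each genotype and time point 10 leaves from 10 plants were ground together, and libraries A, B and C were made from shares of the same powder. P-values therefore measure how far such libraries scatter and say nothing of the scatter between plants. At T6 a difference between the isolates and a difference between their pools of plants cannot be told apart.

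ATX1, ATX3 and ATX4 are trithorax-type histone methyltransferases, which place methyl groups on lysine 4 of histone H3, a mark found at expressed genes. Leaf senescence is the ordered dismantling of a leaf, in which chlorophyll and protein are broken down and nitrogen is sent to growing or reproductive organs. NAC and WRKY transcription factors switch on senescence-associated genes, and many of these also respond to salicylic acid, abscisic acid or pathogens. The labels date the detection of senescence, in separate TM plants, to 2 days after T6.

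The 6 TM libraries of T6 held between 5654103 and 8707300 reads, and the 3 WT libraries between 8057074 and 11714474. The share of FPKM on ribosomal RNA loci was 9.12% to 13.3% in the TM libraries and 8.57% to 10.4% in the WT libraries. FPKM scales the reads of a gene to its length and to library depth. Fold changes come from limma on log2(FPKM + 1) with 1 mean for each of the 12 groups, are given as TM1 minus TM2 unless stated, and carry p-values adjusted by the Benjamini-Hochberg method over all genes. The pseudocount of 1 understates changes of genes with low FPKM. The threshold was an adjusted p under 0.05 together with a difference of at least 2-fold. The mutated genes were detected in both isolates at similar levels. *ATX1* (AT2G31650) had 1.64, 2.00 and 2.27 FPKM in the TM1 libraries A, B and C, 2.43, 1.61 and 3.12 in TM2 and 3.68, 3.25 and 3.25 in WT. Its log2 difference was -0.17 (adjusted p = 0.833), that of *ATX3* (AT3G61740) -0.04 (adjusted p = 0.976) and that of *ATX4* (AT4G27910) -0.14 (adjusted p = 0.859). The position of the insertions relative to the counted 3′ reads is not given in the sources used here, so these levels check nothing about the labels. All 6 markers of green mesophyll were listed, with a summed FPKM of 11548 to 12933 in TM1, 10075 to 10263 in TM2 and 13207 to 14024 in WT. These markers are themselves photosynthesis genes, so they give no separate measure of cell makeup. Of 5 genes that mark floral organs and the inflorescence none was listed. In bulk leaves, fewer cells of a type and less RNA per cell cannot be told apart.

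The isolates differed at T6 in 106 genes, 0.545% of those tested. Of these, 93 (0.478%) were higher in TM1 and 13 (0.0669%) lower, and the median over all genes was -0.01 (log2). The authors had removed weak genes from the table. Genes near 0 elsewhere, such as *KTI1* and *DIN2*, could have passed that filter through TM1 at T6, which was not tested. Counts of genes past the threshold, here and below, could lean toward TM1 for this reason and are no measure of direction. With no limit on fold, 465 genes (2.39%) had an adjusted p under 0.05. The genes with the largest excess in TM1 included the senescence markers *NIT2* and *SAG13*, the protease inhibitors *TI1* and *KTI1*, lipid transfer-like proteins of the *EARLI1* group and the defense gene *PR1*. The libraries of TM1 and TM2 did not overlap in 92 of the 93 genes and in 13 of the 13, beside 9.2% of all genes with TM1 higher and 8.51% with TM1 lower without overlap. An exact permutation test of 3 against 3 libraries gives p = 0.1 for each of these genes, the smallest it allows. Both results follow largely from the choice of the genes on the same libraries and are no added support.

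**Figure D1:**
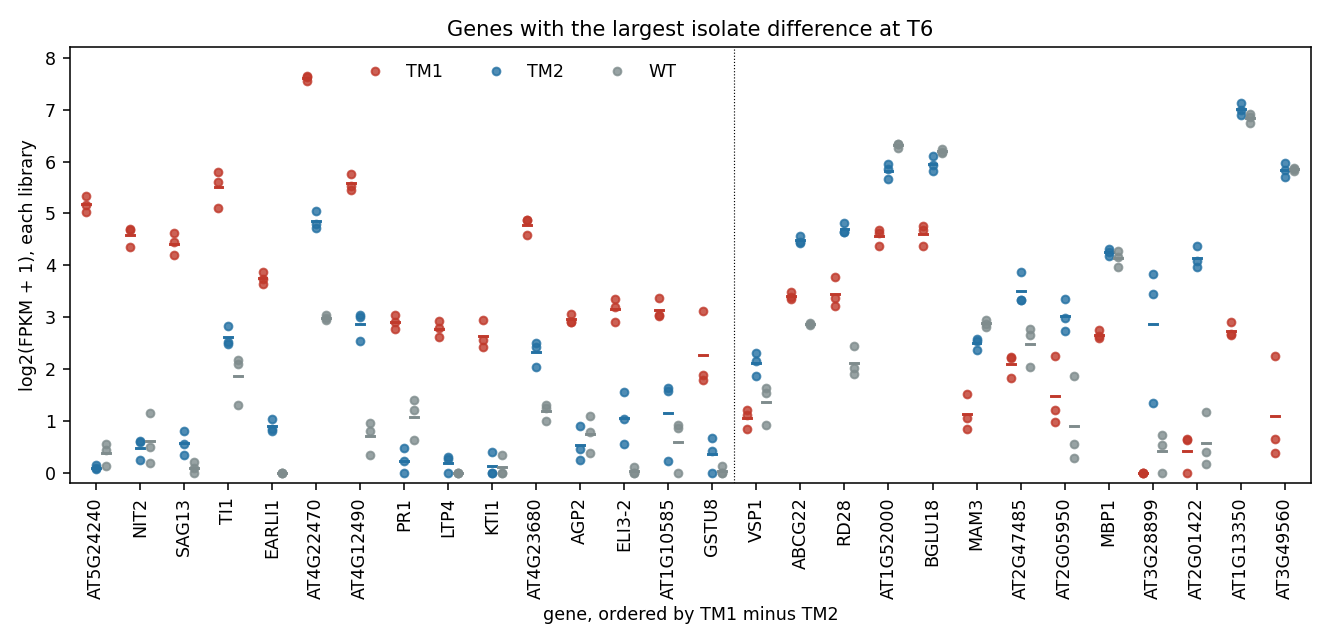
Level of the 15 genes with the largest excess in TM1 (left of the dotted line) and of the 13 genes lower in TM1 (right) at T6, as log2(FPKM + 1) of each library, with a bar at the mean of the 3 libraries of TM1 (red), TM2 (blue) and WT (grey). The red and blue points of a gene do not overlap, which was a condition of the choice. WT lies near TM2 for genes such as *NIT2* and *AT1G13350* and near TM1 for *AT2G01422*.

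*NIT2* (AT3G44300), which encodes a nitrilase and is a widely used mRNA marker of leaf senescence, had 25.1, 24.6 and 19.3 FPKM in TM1, 0.530, 0.516 and 0.184 in TM2 and 0.146, 0.420 and 1.22 in WT. All 3 TM1 libraries were high, and the TM2 and WT libraries lay together near 0. The log2 difference was 4.09 ± 0.27 (SE), adjusted p = 1.68e-12, a 56.1-fold ratio of mean FPKM. *NIT2* was also higher in TM1 at T2, by 1.29 (adjusted p = 0.00774), with differences of -0.10 at T0 and 0.43 at T4 that were not past the threshold. *SAG13* (AT2G29350), a short-chain dehydrogenase first described as a senescence-associated gene, had 17.3, 23.5 and 20.7 FPKM in TM1, 0.275, 0.751 and 0.479 in TM2 and 0.152, 0.0624 and 0 in WT. Its difference of 3.84 ± 0.18 (SE), adjusted p = 1.04e-16, was opposite in sign to the differences at T0, T2 and T4, which were -0.19, -0.52 and -0.38 and not past the threshold. TM1 alone was past the threshold against WT for both genes, by 3.96 for *NIT2* and 4.32 for *SAG13*. *WRKY75* (AT5G13080), a transcription factor that promotes senescence, had low values of 1.52, 1.40 and 3.23 FPKM in TM1 and 0, 0 and 0.693 in TM2, and was listed at 0 in all WT libraries. The TM2 libraries held 4 reads of *WRKY75* in all. Its difference was 1.31 ± 0.23 (SE), adjusted p = 0.000657. With only the libraries of T6 in the fit the adjusted p rose to 0.0568.

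Transcription factors and a phosphatase of the NAC branch of senescence were also higher in TM1, but against WT they took different places. *NAP* (AT1G69490), a NAC factor that promotes senescence, had 8.25, 7.24 and 10.5 FPKM in TM1, 4.00, 1.73 and 2.15 in TM2 and 14.7, 15.9 and 17.0 in WT. Both isolates lay below WT, and TM2 lay lowest. The isolate difference was 1.45 ± 0.22 (SE), adjusted p = 6.91e-05, and the difference from WT was past the threshold in TM2 (-2.27) and not in TM1 (-0.82). *SAG113* (AT5G59220), a protein phosphatase 2C that NAP is known to switch on in senescing leaves, had 34.3, 38.6 and 36.3 FPKM in TM1, 14.2, 12.4 and 13.3 in TM2 and 17.363, 12.6 and 15.3 in WT. Here TM2 and WT overlapped and TM1 stood above both, with an isolate difference of 1.39 ± 0.13 (SE), adjusted p = 1.39e-08. *NAP* and *SAG113* were past the threshold in the same direction at T4, by 1.65 and 1.08. *NAC019* (AT1G52890), a factor of abscisic acid and jasmonate responses, had 9.15, 8.84 and 7.53 FPKM in TM1 and 2.85, 2.06 and 3.69 in TM2, a difference of 1.32 ± 0.22 (SE), adjusted p = 0.000188. *ORE1* (AT5G39610), a NAC factor at the head of the age-dependent senescence pathway, was the last senescence gene past the threshold, with 14.1, 12.2 and 10.3 FPKM in TM1 and 4.76, 5.19 and 6.19 in TM2. Its difference was 1.05 ± 0.25 (SE), adjusted p = 0.0162.

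Of 25 senescence genes tested, 7 were thus higher in TM1 and none lower, beside 0.478% and 0.0669% of all genes, and the median difference of the list was 0.16 beside -0.01 over all genes. *NIT2*, *SAG13* and *WRKY75* were low in the other groups and could have passed the authors' filter on weak genes through TM1 at T6, which was not tested. The count is therefore no measure of direction. The list's median was -0.10 at T0, 0.07 at T2 and 0.47 at T4, so it was larger at T4 than at T6. At T6 the median against WT was 0.50 in TM1 and 0.11 in TM2, comparisons that share the WT libraries. The other 18 members were not past the threshold, and they did not all lean to TM1. *SEN1*, a dark- and senescence-induced gene, had 21.1, 20.1 and 20.2 FPKM in TM1 and 35.7, 34.0 and 32.2 in TM2, a difference of -0.71 ± 0.15 (SE), adjusted p = 0.00544. *SAG20*, another senescence-associated gene, also had an adjusted p under 0.05 in that direction (-0.50, adjusted p = 0.00555). *WRKY45*, *WRKY6* and *WRKY28* differed by -0.23, -0.05 and -0.01, and the study's text describes *WRKY45* and *WRKY28* as promoters of senescence. *WRKY53*, an early senescence regulator, differed by 0.42 (adjusted p = 0.106). Of 9 genes of chlorophyll breakdown none was past the threshold, and *NYC1*, the reductase that starts chlorophyll b breakdown, was the single one with an adjusted p under 0.05 (0.56, adjusted p = 0.000627). With a pseudocount of 5 the count of senescence genes higher in TM1 was 3, and with a 4-fold limit 2.

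**Figure D2:**
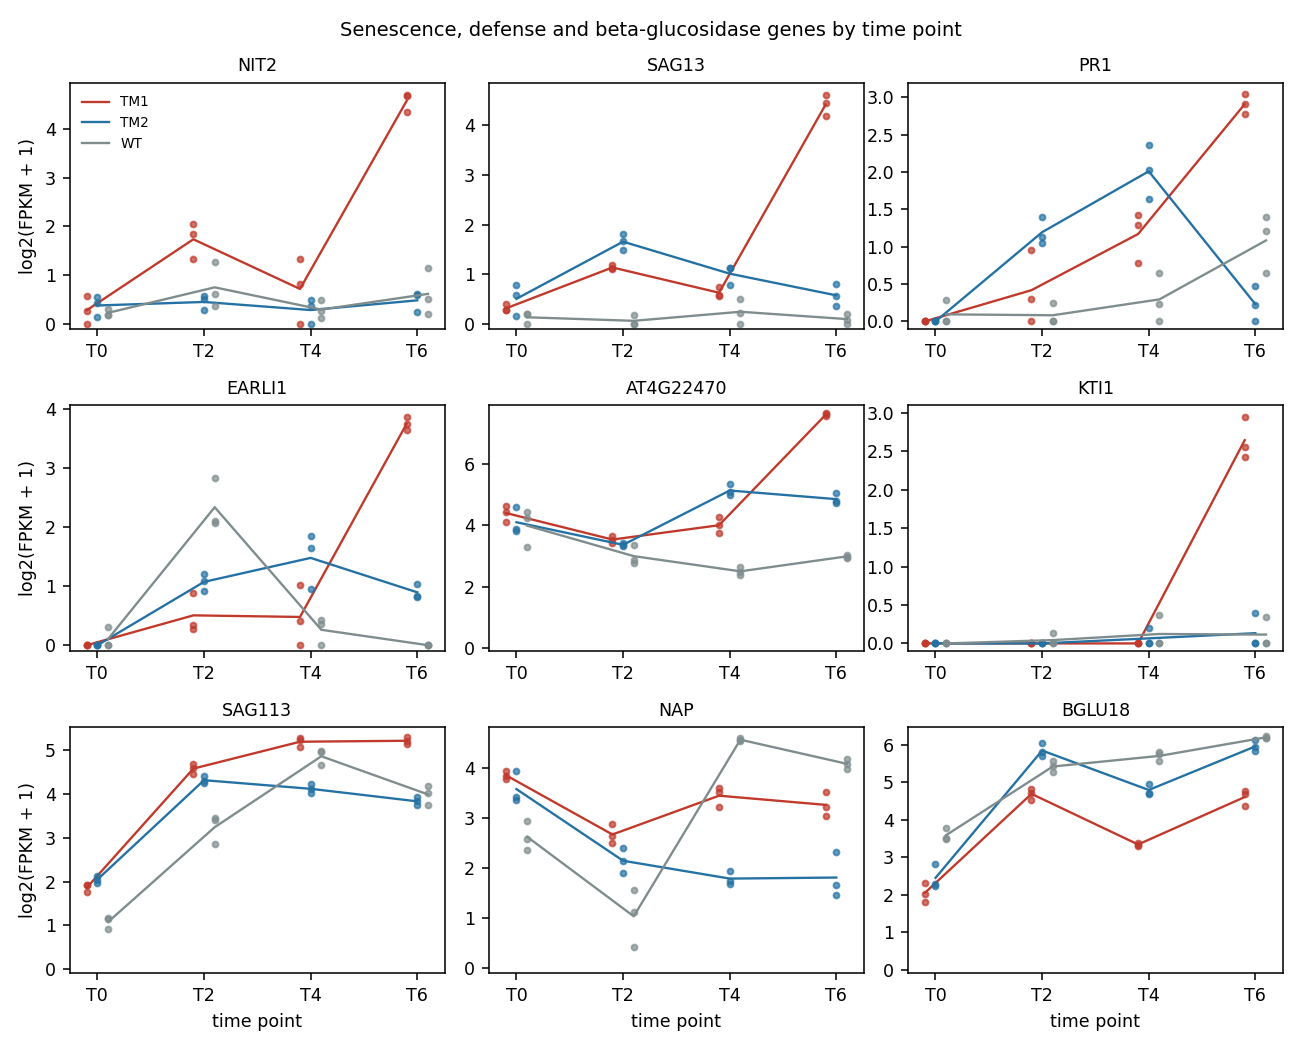
Level of 9 genes at T0, T2, T4 and T6 as log2(FPKM + 1), with points for the libraries and lines through the means of TM1 (red), TM2 (blue) and WT (grey). *NIT2*, *SAG13*, *EARLI1* and *KTI1* stand apart in TM1 at T6, *PR1* crosses between T4 and T6, *SAG113* and *NAP* separate by T4, and *BGLU18* is lower in TM1 than in TM2 from T2 on.

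*PR1* (AT2G14610), the standard marker of salicylic acid-dependent defense, had 6.50, 7.21 and 5.87 FPKM in TM1, 0.165, 0.386 and 0 in TM2 and 1.64, 0.562 and 1.31 in WT. TM1 was above all TM2 and WT libraries, and the 3 reads of *PR1* in the TM2 libraries give a read ratio of 36.8 (95% interval 12.2 to 181) that covers counting error only. The log2 difference at T6 was 2.68 ± 0.23 (SE), adjusted p = 1.02e-09. At T4 the TM1 libraries had 1.6963, 1.46 and 0.720 FPKM and the TM2 libraries 4.11, 3.08 and 2.13, so the lower isolate at T4 was the higher one at T6. The T4 difference of -0.84 was not past the threshold, whereas the T6 difference departed from the mean of the earlier ones by 3.22 (adjusted p = 7.34e-10). Of 17 members of the salicylic acid list tested, *PR1* alone was higher in TM1 and none was lower, beside 0.478% and 0.0669% of all genes, and the list's median was -0.00. *WRKY38*, a factor of the same response, was the single other member with an adjusted p under 0.05, at a lower level in TM1 and under the 2-fold limit (-0.64, adjusted p = 0.0208). *PR2*, a beta-1,3-glucanase of the same response, had 8.55, 11.0 and 8.06 FPKM in TM1 and 10.6, 8.11 and 8.92 in TM2, and the groups overlapped. *PR5*, a thaumatin-like protein, differed by 0.22 (adjusted p = 0.654) and *ICS1*, the salicylic acid synthesis enzyme, by -0.10 (adjusted p = 0.946).

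The 15 genes with the largest excess in TM1 also held genes of protease inhibitors and lipid transfer-like proteins, families whose other members were not counted. *TI1* (AT2G43510), a small trypsin inhibitor, had 33.4, 47.5 and 54.8 FPKM in TM1, 4.6046, 4.78 and 6.14 in TM2 and 1.49, 3.30 and 3.54 in WT, a difference of 2.89 ± 0.44 (SE), adjusted p = 6.63e-05. *KTI1* (AT1G73260), a Kunitz-type trypsin inhibitor, had 4.88, 6.75 and 4.39 FPKM in TM1 and 0, 0.320 and 0 in TM2. The 2 reads of *KTI1* in TM2 give a read ratio of 53.6 (95% interval 14.5 to 449), and the log2 difference was 2.51 ± 0.16 (SE), adjusted p = 5.03e-13. It was listed at 0 in all TM1 libraries of T0, T2 and T4 and in all but 1 of the TM2 libraries. *EARLI1* (AT4G12480), a proline-rich lipid transfer-like protein of systemic immunity, had 12.4, 11.5 and 13.6 FPKM in TM1 and 0.754, 1.06 and 0.787 in TM2. It was listed at 0 in the WT libraries of T6, whereas at T2 it had 3.33, 6.15 and 3.185 FPKM in WT, above both isolates. Its T6 difference of 2.86 ± 0.23 (SE), adjusted p = 2.81e-10, followed a difference of -1.0008 at T4, where *EARLI1* was past the threshold in the other direction. The neighbouring copy *AT4G12490* had 45.4, 52.9 and 42.7 FPKM in TM1, 7.03, 7.28 and 4.84 in TM2 and 0.265, 0.760 and 0.947 in WT, so that both isolates were above WT at T6 and TM1 was highest. At T2 WT was the highest group for this copy, with 9.47, 7.06 and 7.96 FPKM. *EARLI1*, *AT4G12490* and *AZI1* are similar in sequence, as are *LTP3* and *LTP4*, and reads could be split between such copies.

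*AT4G22470*, of the protease inhibitor, seed storage and lipid transfer protein family, had the highest level in TM1 among those 15 genes. It had 196, 187 and 201 FPKM in TM1, 26.8, 32.1 and 25.5 in TM2 and 6.72, 7.26 and 6.88 in WT, with no overlap between any pair of groups. Its difference was 2.75 ± 0.21 (SE), adjusted p = 3.49e-11 at T6 and -1.13 (adjusted p = 0.000334) at T4, past the threshold in opposite directions. *AT4G23680*, of the Bet v 1 allergen family, crossed in the same way, with 22.9, 28.5 and 28.2 FPKM in TM1 and 4.68, 3.13 and 4.37 in TM2 at T6 (2.45) and a difference of -1.07 at T4. *LTP4* (AT5G59310), a lipid transfer protein, had 5.10, 5.90 and 6.62 FPKM in TM1 and 0, 0.233 and 0.208 in TM2. Its 2 reads in TM2 give a read ratio of 41.0 (95% interval 11.0 to 345). *AGP2*, an arabinogalactan protein of the cell surface, differed by 2.43 ± 0.45 (SE), adjusted p = 0.00096, and *ELI3-2*, an elicitor-induced alcohol dehydrogenase, by 2.1050 ± 0.20 (SE), adjusted p = 1.4e-08. *AT1G10585*, a basic helix-loop-helix protein, had 7.24, 9.30 and 7.18 FPKM in TM1 and 1.98, 2.12 and 0.172 in TM2 (2.00), which lost its call when only the T6 libraries were fitted (adjusted p = 0.0568). *GSTU8*, a tau-class glutathione transferase, had 2.68, 2.48 and 7.73 FPKM in TM1 and 0.587, 0.343 and 0 in TM2 (1.90), and library C gave the highest value.

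Other processes gave small or single differences. *SEP3* (AT1G24260) and *SEP1* (AT5G15800), MADS box genes of floral organ identity, were the 2 of 25 flowering genes past the threshold, both higher in TM1, beside 0.478% of all genes higher and 0.0669% lower. *SEP3* had 8.27, 10.4 and 11.6 FPKM in TM1, 5.23, 3.06 and 2.5043 in TM2 and 0.723, 0.667 and 0.215 in WT (1.31 ± 0.29 (SE), adjusted p = 0.00614). *SEP1* had 3.92, 4.19 and 3.41 FPKM in TM1 and 0.962, 2.15 and 1.0045 in TM2 (1.06 ± 0.22 (SE), adjusted p = 0.00329). Both isolates stood above WT for both genes. The call of *SEP3* was lost without TM2 library C (1.13, adjusted p = 0.0619), and the difference of *SEP1* fell under 2-fold without TM2 library A (0.94) or C (0.96). *FT*, the mobile flowering signal, had 23.9, 11.0 and 11.9 FPKM in TM1 and 11.2, 8.92 and 8.28 in TM2, with overlapping groups and an adjusted p of 0.337 in limma. Among 10 heat shock genes *HSP17.4* (1.59, adjusted p = 1.47e-05) and *HSP17.6C* (1.25, adjusted p = 0.00188), small chaperones with mean FPKM of 2.75 and 2.06 in TM1, were higher, and none was lower, beside 0.478% and 0.0669% of all genes. Of 14 list members 10 were listed, and 9 of these had a positive difference, beside 47.6% of all genes, with a median of 0.37. *HSP17.4* and *HSP17.6C* held 42 and 27 reads in the TM1 libraries of T6 and 4 each in those of TM2. Genes near 0 elsewhere could have passed the authors' filter on weak genes through TM1 at T6, which was not tested. The counts of this list are therefore no measure of direction. *HSP90.1* and *HSP101*, larger chaperones of the same response, were at 0.01 and 0.01, and the 8 members not past the threshold lay between -0.03 and 0.51.

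No gene of the photosystem and Rubisco list was past the threshold, but all 22 had a positive difference, beside 47.6% of all genes, with a median of 0.31. The list's median was -0.02 at T0, 0.13 at T2 and 0.33 at T4. At T6 an adjusted p under 0.05 was found in 9, all higher in TM1, beside 1.78% of all genes. *LHCB2.1*, an antenna protein of photosystem II, had 143, 124 and 116 FPKM in TM1, 67.8, 86.5 and 65.2 in TM2 and 192, 208 and 187 in WT. TM1 lay between TM2 and WT without overlap, and the isolate difference was 0.80 ± 0.11 (SE), adjusted p = 8.88e-06. *CAB2*, another antenna gene, differed by 0.73 ± 0.07 (SE), adjusted p = 4.69e-08. The list's medians against WT were -0.22 in TM1 and -0.48 in TM2, so TM1 was above TM2 in the photosynthesis genes as well as in *NIT2* and *SAG13*. The summed markers of epidermis (4 of 4 listed) were 215 to 225 FPKM in TM1 and 264 to 271 in TM2, and those of phloem (5 of 5 listed) 179 to 209 in TM1 and 179 to 224 in TM2. The part of tissue makeup in the photosynthesis values was not tested.

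Jasmonate genes leaned the other way. Of 20 tested, 15 had a negative difference, beside 50.9% of all genes, and the median was -0.32 beside -0.01 over all genes. The list's median was -0.33 at T0, -0.40 at T2 and -0.45 at T4, so the lean was not particular to T6. At T6 an adjusted p under 0.05 was found in 4, all lower in TM1, beside 0.612% of all genes. *VSP1* (AT5G24780), a vegetative storage protein and classical output of jasmonate, was the single member past the threshold, with 1.15, 0.808 and 1.32 FPKM in TM1 and 2.64, 3.49 and 3.96 in TM2 at T6 (-1.06 ± 0.27 (SE), adjusted p = 0.0271). At T4 it had differed by -2.41 and at T2 by -2.38, both past the threshold. The T6 call of *VSP1* was lost without TM1 library A or B or without TM2 library B or C (adjusted p between 0.0781 and 0.145). *LOX2*, *AOS* and *MYC2*, a lipoxygenase and an oxide synthase of jasmonate synthesis and the main transcription factor of the response, differed by -0.58, -0.48 and -0.38. *VSP2*, the close homolog of *VSP1*, had overlapping groups at T6 (0.14, adjusted p = 0.921) after a difference of -2.32 at T4.

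**Figure D3:**
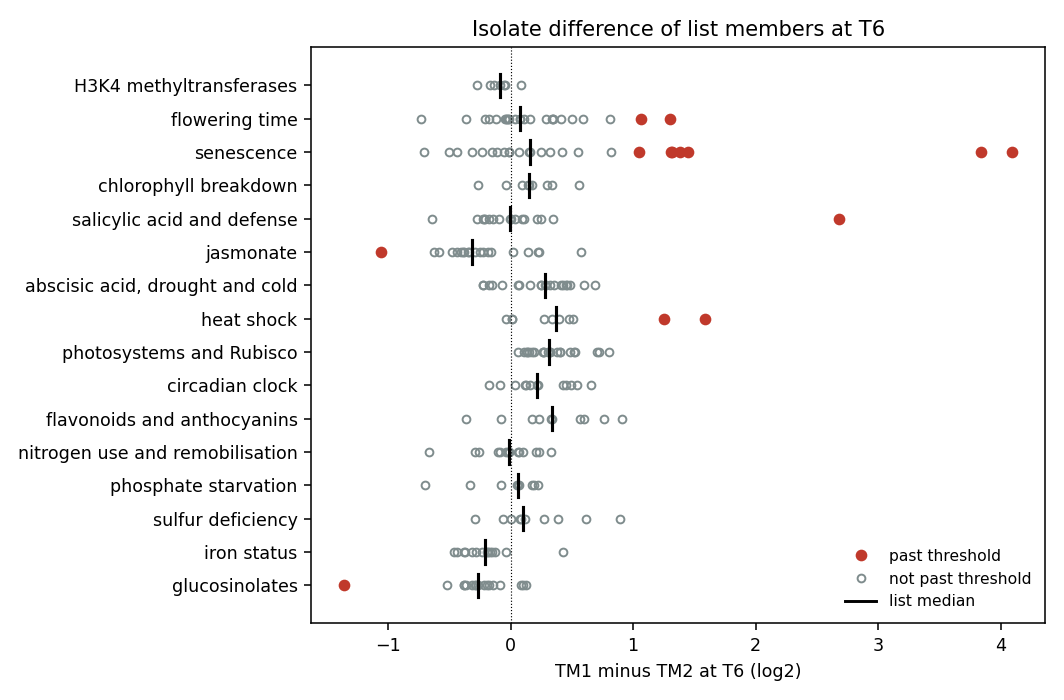
Difference TM1 minus TM2 at T6 in log2 for the members of 16 gene lists, with filled red points for genes past the threshold, open grey points for the others and a black bar at the list's median. All photosystem and Rubisco genes lie above 0, most jasmonate, iron and glucosinolate genes lie below 0, and the senescence list holds 7 filled points.

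Of the remaining lists, the 14 iron status genes had 13 negative differences with a median of -0.21, the 17 glucosinolate genes 14 negative with a median of -0.26, and the 21 genes of abscisic acid, drought and cold 16 positive with a median of 0.28, beside 50.9% negative and 47.6% positive over all genes. At T4 the medians of these lists were 0.17, -0.07 and 0.46 in that order. A single gene of them was past the threshold at T6, *MAM3* of the glucosinolate pathway, lower in TM1. Of all genes 0.545% were past it. *HAI2*, an abscisic acid-induced phosphatase like *SAG113*, differed by 0.69 (adjusted p = 0.000841), under the 2-fold limit. The circadian clock list had a median of 0.22 and no gene past the threshold, with *PRR5* and *PRR7*, daytime repressors of the clock, at 0.45 and 0.43. Its median at T4 was 0.37. The 7 histone H3 lysine 4 methyltransferase genes, which include the mutated ones, had a median of -0.09, and limma gave none an adjusted p under 0.05. Of the study's 398 bolting-associated genes 10 were higher in TM1 and 1 lower, beside 0.478% and 0.0669% of all genes, with a median of 0.01. That list was selected on these libraries and is not independent evidence of a direction.

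Among the 13 genes lower in TM1, *BGLU18* (AT1G52400), a beta-glucosidase of endoplasmic reticulum bodies that releases abscisic acid from its glucose ester, had 24.6, 26.1 and 19.7 FPKM in TM1, 68.3, 59.9 and 55.5 in TM2 and 71.7, 70.8 and 74.4 in WT. TM1 was low, TM2 was just below WT, and the isolate difference was -1.35 ± 0.14 (SE), adjusted p = 6.15e-08. It was past the threshold in the same direction at T2 (-1.16) and T4 (-1.45). *MBP1* (AT1G52040), a myrosinase-binding lectin, shared that course. It had 5.74, 5.26 and 5.05 FPKM in TM1 and 17.2, 18.9 and 18.176 in TM2 at T6 (-1.59 ± 0.18 (SE), adjusted p = 4.23e-07), with differences of -1.19 at T2 and -1.39 at T4. *AT1G52000*, a mannose-binding lectin of the same family, had 23.5, 24.7 and 19.7 FPKM in TM1, 60.8, 49.7 and 57.0 in TM2 and 79.9, 79.4 and 76.1 in WT (-1.27 ± 0.15 (SE), adjusted p = 9.64e-07). TM1 alone was past the threshold against WT for these 3 genes.

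*MAM3* (AT5G23020), a methylthioalkylmalate synthase that lengthens the side chain of aliphatic glucosinolates, had 1.85, 1.08 and 0.800 FPKM in TM1, 4.82, 4.16 and 4.96 in TM2 and 6.31, 6.03 and 6.76 in WT. It differed by -1.35 ± 0.20 (SE), adjusted p = 3.3e-05 and was the only gene lower in TM1 whose T6 difference also departed from the mean of the earlier ones (-1.12, adjusted p = 0.00725). Its homolog *MAM1* differed by -0.21 (adjusted p = 0.461). *RD28* (AT2G37180), a plasma membrane aquaporin, had 8.31, 9.41 and 12.7 FPKM in TM1, 23.9, 24.0 and 27.2 in TM2 and 3.09, 2.75 and 4.44 in WT, so both isolates stood above WT and TM2 was highest (-1.24 ± 0.18 (SE), adjusted p = 3.27e-05). *ABCG22* (AT5G06530), an ABC transporter that acts in stomatal regulation, had 10.2, 9.47 and 9.25 FPKM in TM1, 22.7, 20.5 and 20.9 in TM2 and 6.42, 6.18 and 6.27 in WT (-1.07 ± 0.14 (SE), adjusted p = 9.57e-06). Both genes were lower in TM1 at T4 too, by -1.65 and -1.30, and had differences of 0.35 and 0.64 at T2 that were not past the threshold. *AT2G47485* (-1.42) and *AT2G05950* (-1.55, adjusted p = 0.0372) were also lower in TM1, and *AT2G47485* had been higher in TM1 at T2 (2.04). Both calls could be lost by leaving out a single library. *AT2G05950* kept its call only without TM1 library A among the 6 libraries left out in turn, and *AT2G47485* lost it without TM1 library C (adjusted p = 0.0552) or TM2 library B (adjusted p = 0.0639).

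A small set of genes separated the isolates at every harvest. Of the 106 genes, 5 were past the threshold in the same direction at T0, T2, T4 and T6, namely *AT5G24240*, *AT3G49560*, *AT1G13350*, *AT2G01422* and *TCH4*. *AT5G24240*, which encodes a protein of the phosphatidylinositol 4-kinase gamma family, was expressed in TM1 and close to 0 elsewhere. It had 34.9, 39.3 and 31.4 FPKM in TM1, 0.106, 0.0616 and 0.0551 in TM2 and 0.350, 0.466 and 0.104 in WT at T6, where the TM2 libraries held 4 reads in all. The difference was 5.07 ± 0.16 (SE), adjusted p = 1.27e-21, and it was 4.83, 4.81 and 5.24 at T0, T2 and T4. The ratio of mean FPKM was 475, and the read ratio 466 (95% interval 182 to 1712). The overlapping gene *AT5G24230* differed by -0.18. *AT5G24250*, which the gene table used here does not hold, was also higher in TM1, with 1.18, 3.90 and 1.27 FPKM in TM1 and 0 in all TM2 libraries (1.53 ± 0.21 (SE), adjusted p = 1.45e-05).

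*AT3G49560* (*HP30*) and *AT1G13350* had the opposite pattern, with TM2 at the level of WT and TM1 far below. *AT3G49560*, of the Tim17/Tim22/Tim23 family of membrane proteins, had 0.582, 0.299 and 3.77 FPKM in TM1, 61.5, 56.1 and 50.9 in TM2 and 57.1, 55.5 and 57.8 in WT. TM1 library C was higher than A and B, and still 36.3-fold separated the group means of TM2 and TM1 (-4.74 ± 0.31 (SE), adjusted p = 1.58e-12). Its earlier differences were -5.62, -5.29 and -5.16. Its close homolog *AT5G24650* (*HP30-2*) had 16.2, 15.8 and 15.4 FPKM in TM1 and 14.9, 12.3 and 18.6 in TM2, and the groups overlapped. *AT1G13350*, a protein kinase, had 5.30, 5.37 and 6.47 FPKM in TM1, 126, 118 and 138 in TM2 and 114, 120.3 and 106 in WT, a 22.3-fold ratio of means (-4.26 ± 0.13 (SE), adjusted p = 7.15e-22). Its differences were -3.80 at T0, -3.87 at T2 and -4.42 at T4. The related kinase gene *AT3G25840* had 413, 431 and 467 FPKM in TM1 and 432, 435 and 488 in TM2, without a separation of the isolates.

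*AT2G01422*, a noncoding RNA, departed from WT in TM2. It had 0.578, 0 and 0.543 FPKM in TM1, 16.0, 19.7 and 14.7 in TM2 and 0.131, 0.322 and 1.25 in WT (-3.72 ± 0.26 (SE), adjusted p = 1.1e-11), after differences of -1.90, -3.03 and -3.45 at T0, T2 and T4. *AT3G28899*, which overlaps *AT3G28900*, was similar from T2 on. It was at 0 reads in all TM1 libraries and had 9.97, 1.55 and 13.2 FPKM in TM2 and 0, 0.452 and 0.657 in WT. Against 3 reads over the TM1 group it was at least 11.4-fold higher in TM2 (-2.88 ± 0.49 (SE), adjusted p = 0.000398), and with only the T6 libraries in the fit the adjusted p was 0.0533. *TCH4* (AT5G57560), a touch-induced xyloglucan endotransglucosylase of the cell wall, had 17.7, 13.4 and 16.6 FPKM in TM1, 8.94, 7.28 and 4.54 in TM2 and 19.2, 18.7 and 16.2 in WT. TM2 was the isolate below WT, and the difference was 1.13 ± 0.20 (SE), adjusted p = 0.000724, with 1.0010, 1.19 and 1.61 at the earlier time points. Without TM2 library C it was 0.89, under the 2-fold limit. For each of these 6 genes the 3 listed genes on either side in the gene table were examined, which leaves out *AT5G24250*, itself past the threshold. For each gene 0 of 6 such neighbours were past the threshold, beside 0.545% of all genes, with differences between -0.39 and 0.89. At so small a share the neighbours can tell little. Among them *AT5G57510* and *AT3G28918* were at 0 in all libraries of T6 and could not be called.

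**Figure D4:**
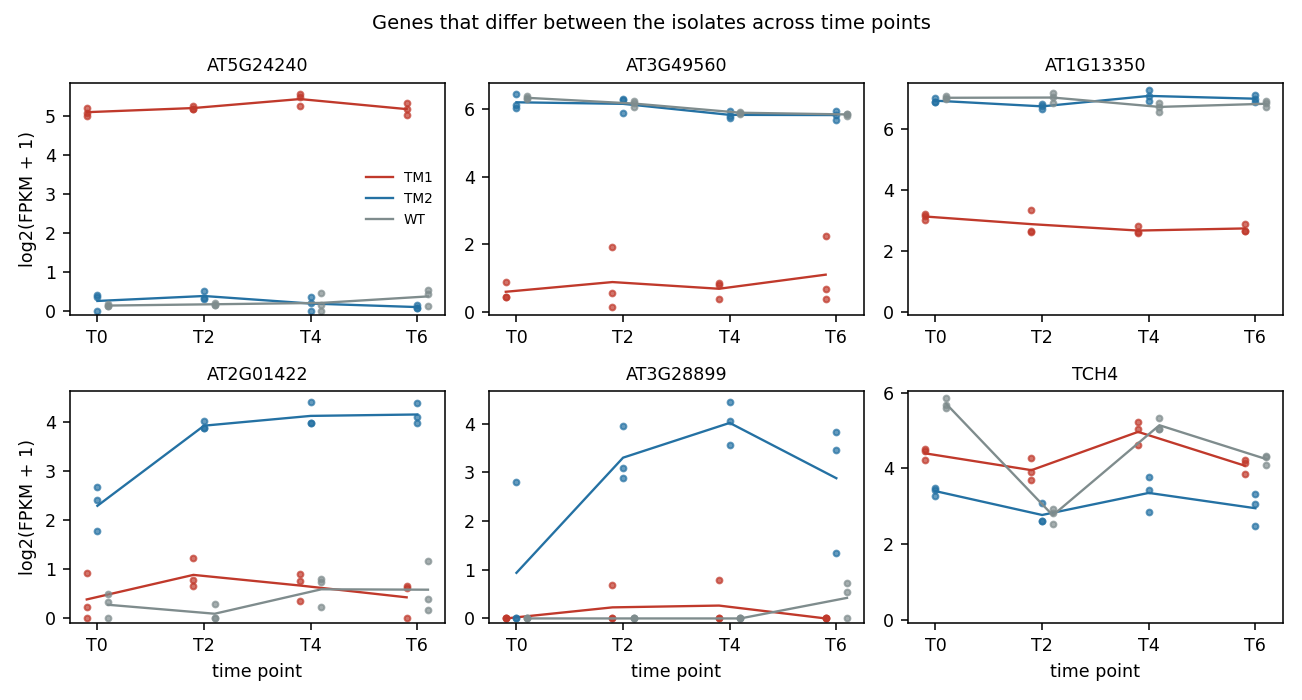
Level of 6 genes at T0, T2, T4 and T6 as log2(FPKM + 1), with points for the libraries and lines through the means of TM1 (red), TM2 (blue) and WT (grey). *AT5G24240* is high only in TM1, *AT3G49560* and *AT1G13350* are low only in TM1, *AT2G01422* and *AT3G28899* are high only in TM2, and *TCH4* is lower in TM2 than in TM1 at all 4 time points.

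Another fit used neither the libraries of T6 nor libraries as replicates. The genes past the threshold at every harvest had been chosen partly by their differences at T0, T2 and T4. The fit uses those same harvests, so it is not an independent check of these genes. With the 3 differences between the TM1 and TM2 pools of T0, T2 and T4 as the units, limma called 3 of 19437 genes (0.0154%), 1 higher in TM1 (0.00514%) and 2 lower (0.0103%). They were *AT5G24240* (4.96, adjusted p = 0.00505), *AT3G49560* (-5.36, adjusted p = 0.00505) and *AT1G13350* (-4.03, adjusted p = 0.0138). All 3 had the direction seen at T6. *AT2G01422* and *TCH4* had an adjusted p of 0.941 in that fit. These 3 genes thus differed between the isolates in plants other than those of T6.

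Most of the genes higher in TM1 at T6 were not past the threshold in that direction at the earlier harvests. Of the 93, 4 were past the threshold in the same direction at T0 (0.314% of all genes), 4 at T2 (0.134%) and 12 at T4 (0.725%), and 79 at none of them. In the opposite direction 1 was past it at T2 (0.144% of all genes) and 5 at T4 (0.365%). The median difference of the 93 was 1.33 at T6, 0.02 at T0, -0.04 at T2 and 0.06 at T4. The 13 genes lower in TM1 had 3 past the threshold in the same direction at T0 (0.0875% of all genes), 7 at T2 (0.144%) and 10 at T4 (0.365%), with 1 in the opposite direction at T2 (0.134%) and a median of -1.42 at T6 and -1.49 at T4. The test of the T6 difference against the mean of those at T0, T2 and T4 called 73 genes (0.376%), of which 72 (0.37%) were shifted toward TM1 at T6 and 1 (0.00514%), *MAM3*, toward TM2. Of the 93 genes 59 were among them. The largest such departures were those of *SAG13* (4.21), *NIT2* (3.55), *EARLI1* (3.38), *TI1* (3.24), *PR1* (3.22) and *AT4G22470* (2.97), with adjusted p between 1.5e-15 and 0.000261. *AT5G24240* (0.11, adjusted p = 0.952) and *AT1G13350* (-0.23, adjusted p = 0.754) did not depart from their earlier differences past the threshold.

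**Figure D5:**
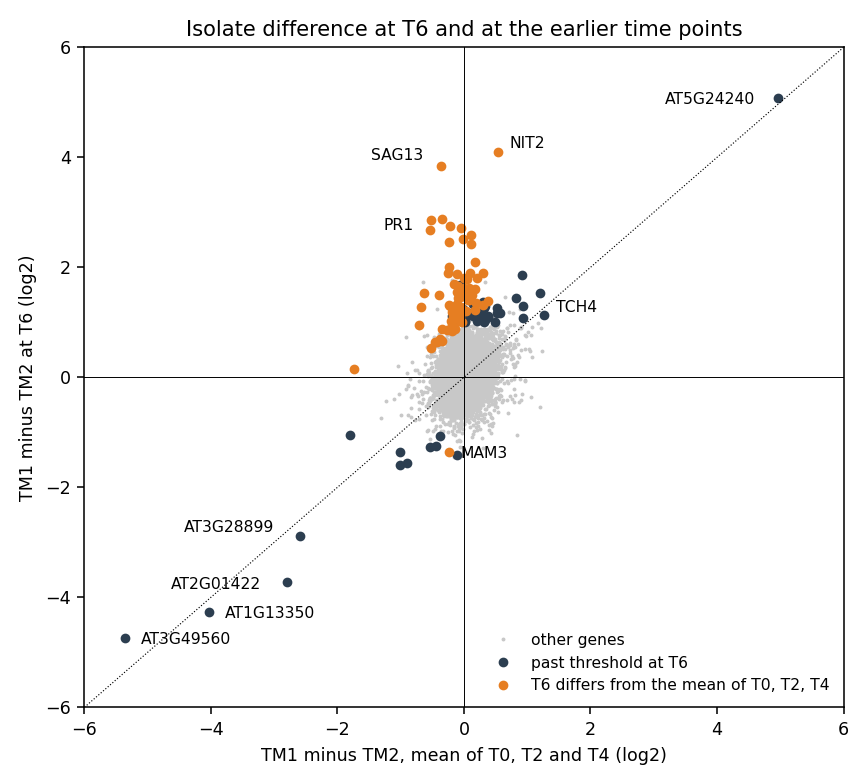
Difference TM1 minus TM2 at T6 (vertical axis, log2) against its mean over T0, T2 and T4 (horizontal axis, log2) for 19437 genes, with dark points for genes past the threshold at T6 and orange points for the 73 genes whose T6 difference departs from the earlier mean. *AT5G24240*, *AT1G13350* and *AT3G49560* lie near the dotted line of equal differences, and *NIT2*, *SAG13* and *PR1* lie far above it.

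For the genes higher in TM1 at T6, the departure from WT was past the threshold in TM1 alone more often than in TM2 alone. Against WT at T6, 348 genes (1.79%) were past the threshold in TM1, with 1.02% of all genes higher and 0.767% lower. In TM2 they were 458 (2.36%), with 0.967% higher and 1.39% lower. The comparisons share the WT libraries. The 93 genes were chosen for TM1 above TM2. Where WT is near 0, as for *KTI1*, TM2 cannot fall below it, so such a gene can be past the threshold only above WT. The counts that follow are therefore partly set by that choice and do not measure which isolate departs more. Of the 93 genes, 52 were past the threshold against WT in TM1 alone, all higher than WT, and 12 in TM2 alone, all lower than WT. In 10 both isolates and in 19 neither was past the threshold. The median of the 93 genes was 1.40 in TM1 against WT and 0.00 in TM2 against WT. *KTI1* is an example of the first kind, with 2.53 in TM1 against WT and 0.02 in TM2. *NAP* and *TCH4* are examples of the second, with -2.27 and -1.30 in TM2. *AT4G22470*, *AT4G12490*, *AT4G23680*, *ELI3-2*, *SEP1* and *SEP3* were higher than WT in both isolates. Of the 13 genes lower in TM1, 6 were past the threshold against WT in TM1 alone, all lower than WT, and 5 in TM2 alone, all higher than WT. *RD28* was past it in both and *VSP1* in neither.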

How the data were processed

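The authors made directional 3′ cDNA libraries (BrAD-seq), aligned reads to TAIR10 with Rsubread, computed FPKM with NOISeq and removed weak genes with HTSFilter. The deposited FPKM of 19437 genes in 36 libraries were used as given, and 0 columns were left unmapped. Whether counting used strand is not given in the sources used here, so overlapping genes (24 of the 106) are uncertain. Those named in the text are *AT5G24240*, *AT3G28899*, *AT4G22470*, *AT4G12490*, *AT1G10585*, *EARLI1*, *SEP1*, *HSP17.4*, *EXT3*, *AMY1*, *ERD9*, *UGT73B4*, *CYP91A2* and *CYP81D11*. All values were whole numbers of reads within 0.001, divided by gene length and depth (100% of values), and the recovered reads gave depth and read numbers. No replicate pair agreed within counting error, so no library was counted as a copy.

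limma 3.58.1 in R 4.3.3 was fitted to log2(FPKM + 1) of all 36 libraries (12 group means, trended eBayes, 24 residual degrees of freedom). Read ratios carry exact 95% intervals for counting error only. Scripts used Python 3.11.15, numpy 2.4.6, pandas 2.3.3 and matplotlib 3.10.9, and the fits were tested on simulated data. Gene names were looked up in RefSeq's TAIR10.1 table, which matched 19332 of 19437 identifiers, and its positions served only to find overlapping and neighbouring genes.

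The genes and lists were chosen with earlier results of these data known. Named genes were the mutated genes, *NIT2*, *WRKY75*, up to 15 non-overlapping genes with the largest difference in each direction, up to 6 members of each list past the threshold, up to 10 genes past it at all time points and 6 of the test against earlier time points. *ORE1*, *AT5G24250*, homologs and list members under the threshold were named after their values were seen. The letters did not pair the libraries of TM1 and TM2 (correlations of same-letter deviations between -0.03 and 0.03 at T6, and between -0.04 and 0.06 over all time points). The alternatives were other pseudocounts, a filter on low FPKM, other scalings, a letter block, eBayes without trend, only T6 libraries, voom on recovered reads, other fold limits and each library left out.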

Additional observations from a re-analysis of the deposited data

Results flagged for a closer look

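Genes whose difference between the isolates at T6 departed from the mean of their differences at T0, T2 and T4 numbered 73 by limma (adjusted p under 0.05 and at least 2-fold). They are listed here because the same contrast gave another value at another time point. The T6 libraries enter this test and the T6 comparison alike. Among the named genes, the departure in log2 was 4.21 for *SAG13*, 3.55 for *NIT2*, 1.43 for *WRKY75*, 1.02 for *NAC019* and 1.0015 for *SAG113*, the senescence genes. It was 3.38 for *EARLI1*, 2.76 for *AT4G12490*, 2.97 for *AT4G22470* and 2.46 for *LTP4*, the lipid transfer-like proteins. The protease inhibitors *TI1* and *KTI1* departed by 3.24 and 2.54. *PR1* departed by 3.22, *AT4G23680* by 2.69, *AGP2* by 2.31, *AT1G10585* by 2.23, *ELI3-2* by 1.94 and *GSTU8* by 1.61. The small heat shock proteins *HSP17.4* and *HSP17.6C* departed by 1.52 and 1.37, and *SEP1* by 1.16. *MAM3* departed by -1.12, toward a lower level in TM1. Each time point is a single pool of each isolate, so a change of the difference with time and a difference between pools of plants cannot be told apart.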

How the results depend on the processing

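The 106 genes past the threshold at T6 (93 higher and 13 lower in TM1) and the 73 genes of the test against earlier time points depended most on low values and on the fold limit. A pseudocount of 5 gave 27 genes (20 higher, 7 lower) and 19 in the time test, a pseudocount of 0.1 gave 25 lower, and a mean FPKM of at least 1 gave 69 (56 higher) and 37. Limits of 1.5-fold, 4-fold and no fold gave 250, 17 and 465 genes (205, 13 and 346 higher, 45, 4 and 119 lower) and 111, 14 and 138 in the time test. voom on recovered reads gave 144 genes, 20 of them lower in TM1, and shared 92 of the 106. Median ratio scaling gave 107 and quantile normalization 93, and the median over all genes moved by less than 0.1. The share higher in TM1 was 87.7%, and 74.1% with the pseudocount of 5, 76.5% with the 4-fold limit and 74.4% without one. Leaving out 1 library at a time gave 94 to 107 genes (81 to 90 higher, 13 to 20 lower, 20 without TM1 library A) and 53 to 68 in the time test. The library letter as a replicate block gave 105 genes, all among the 106. Only the 9 libraries of T6 gave 85, and the time test could not be fitted with them.

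Of the 37 named genes past the threshold, 20 kept their call in every alternative other than the 4-fold limit, which 16 of these 20 also passed, and none reversed. The FPKM filter left out 5 of the 37, 1 of them among the 20, so these were not tested with it. Among the mutated genes, which were never called, *ATX3* ranged from -0.1335 to 0.0321 with single libraries left out (0.0055 without TM1 library A, 0.0321 without TM2 library C) and *ATX4* from -0.2773 to 0.0305 (the latter without TM1 library C). A pseudocount of 5 brought *SEP1*, *SEP3*, *NAC019*, *NAP*, *WRKY75*, *HSP17.4*, *HSP17.6C*, *GSTU8*, *TCH4*, *RD28*, *ABCG22*, *MAM3*, *VSP1*, *AT2G05950* and *AT2G47485* under 2-fold. A pseudocount of 0.1 ended the calls of *AT1G10585*, *SEP1*, *SEP3*, *HSP17.6C*, *MAM3*, *VSP1* and *AT2G05950* (adjusted p between 0.0713 and 0.36). The fit on pools of T0, T2 and T4 called the same 3 genes in all its settings. The following counts were chosen after seeing the data. Genes higher in TM1 with TM1 alone past the threshold against WT numbered 52, and 15 with a pseudocount of 5, 21 with the FPKM filter, 11 at 4-fold and 87 without a fold limit. Genes past the threshold at all 4 time points ranged from 3 to 11. A single pool for each isolate, genes with few reads and similar gene copies limit these values.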

Other observations

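The genes of the following sentences were among the 93 higher in TM1 at T6. They were named after their values were seen, and members of their families that were not past the threshold were not counted. *GSTU3* and *ERD9*, glutathione transferases like *GSTU8*, had 2.28, 3.93 and 2.19 and 5.73, 3.86 and 4.04 FPKM in TM1, and 0, 0.514 and 0 and 0.522, 1.07 and 1.77 in TM2. The log2 differences were 1.6957 and 1.41 (limma adjusted p = 6.45e-06 and 0.00177). The glycosyltransferase genes *UGT74E2*, *UGT73B4* and *UGT73C1* differed by 1.62, 1.5044 and 1.02, and the cytochrome P450 genes *CYP76C2*, *CYP91A2* and *CYP81D11* by 1.79, 1.51 and 1.1005. *CYP81D11* had 19.9, 17.2 and 14.9 FPKM in TM1, 8.81, 6.43 and 7.39 in TM2 and 3.39, 2.89 and 3.34 in WT. *ERD9*, *UGT73B4*, *CYP91A2* and *CYP81D11* overlap other genes.

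*EXT3* (AT1G21310), an extensin that crosslinks the wall, had the highest level of the 106 genes, with 364, 349 and 347 FPKM in TM1, 99.2, 130.1 and 148 in TM2 and 115, 138 and 119.7 in WT. TM2 and WT lay together and TM1 above both (1.5002, limma adjusted p = 2.42e-09). The chitinase genes *CHI* (AT2G43570) and *ChiC* differed by 1.89 and 1.06, *DIN2*, a dark-induced beta-glucosidase, by 1.62, and *AMY1*, a secreted alpha-amylase, by 1.35. *DIN2* had 1.79, 2.84 and 2.24 FPKM in TM1 and 0.195, 0 and 0 in TM2.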
